A study of Mus musculus with 6 samples.

Results

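The expression of 8 germline genes, Rhox5, Rhox6, Rhox9, Dazl, Sycp3, Mael, Taf7l and Stk31, was followed across the clones of a mouse embryonic stem (ES) cell line. They were chosen as all probe sets whose platform annotation gives one of these symbols alone, which found 10 probe sets for 8 of the 18193 genes on the array. Rhox5 was included because its signal was low in 1 clone, A3, and the remaining 7 genes because, like Rhox5, they belong to the genes that mouse somatic cells are known to keep off through methylation of their promoters. Methylation itself was not measured in these samples.

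The arrays came from 3 clones of EBRTcH3 (EB3) ES cells, named A3, A1 and A4, in which the ROSA26 locus holds a 3xFLAG-tagged human WBSCR1 open reading frame behind a promoter that tetracycline represses. Induced cells of each clone were cultured for 24 h without tetracycline and control cells with it, in medium with leukaemia inhibitory factor, so that there were 3 induced and 3 control arrays. Each clone thus had 2 arrays, 1 induced and 1 control. The control cells carried the WBSCR1 transgene too, an effect of the transgene and one of withdrawing tetracycline cannot be told apart, and the level of the transgene was not analysed here. Each clone is a single isolate, so the spread behind every comparison of clones is that between arrays of a clone and not that between clones of a kind.

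All values are log2 signals from an Affymetrix mouse genome array after robust multi-array averaging (RMA), a procedure that corrects background, equalises the arrays and summarises the probes of a set. The array medians lay between 5.11 and 5.18. A difference of 1 on this scale is a doubling, and signals of different probe sets cannot be ranked against each other. Of the 12 ES cell markers listed for comparison, all were measured and 0 lay under 5 log2 on all arrays. Of the control probe sets that follow RNA quality, the 3' minus 5' difference of beta-actin was 0.29 and 0.32 on the induced and control arrays of A3, against 0.45 and 0.40 in A1 and 0.43 and 0.42 in A4. For Gapdh it was 0.08 and -0.01 in A3, 0.05 and 0.10 in A1 and 0.06 and 0.09 in A4. The mean 18S rRNA signal was 7.27 and 6.61 in A3, 7.03 and 5.66 in A1 and 5.99 and 5.99 in A4. A group of 36 probe sets, none of them of the genes examined, lay more than 1 log2 above every other array on the induced A1 and the control A4 array together.

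The genes examined act at different steps of germ cell development. Rhox5, Rhox6 and Rhox9 encode homeobox proteins of the X-linked Rhox cluster, which is active in gonads and placenta. Dazl binds mRNA in germ cells and promotes its translation, Mael acts in the piRNA pathway, Stk31 is a germ cell protein with a Tudor and a kinase domain, Sycp3 is a structural protein of the chromosome axis in meiosis, and Taf7l is a germ cell paralogue of a subunit of the general transcription factor TFIID. In mouse, such genes are often held silent by methylated CG dinucleotides at their promoters together with the repressor complex PRC1.6, whose subunits E2F6 and MGA recognise E2F-type and E-box sequences.

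The promoter windows of RefSeq (GRCm38.p6, 250 bases before to 50 bases after the listed start site) are shown for 4 of these genes, because CG dinucleotides, in capitals, are the places where methylation could act, and because the genes shown differ in direction in A3. All 8 genes have a position in RefSeq, and 6 of them have promoter entries in the table used, with 7 windows. The other two are Rhox6 and Rhox9. Rhox5 is known to use more than one promoter, and its window is only that of the listed start.
Rhox5, chrX:37754358-37754657, plus strand: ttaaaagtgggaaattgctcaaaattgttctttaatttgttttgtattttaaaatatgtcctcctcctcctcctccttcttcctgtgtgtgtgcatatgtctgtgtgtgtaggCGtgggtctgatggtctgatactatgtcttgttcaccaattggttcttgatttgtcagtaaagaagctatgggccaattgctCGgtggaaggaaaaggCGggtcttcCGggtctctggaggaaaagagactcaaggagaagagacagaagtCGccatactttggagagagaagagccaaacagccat
Dazl, chr17:50293571-50293870, minus strand: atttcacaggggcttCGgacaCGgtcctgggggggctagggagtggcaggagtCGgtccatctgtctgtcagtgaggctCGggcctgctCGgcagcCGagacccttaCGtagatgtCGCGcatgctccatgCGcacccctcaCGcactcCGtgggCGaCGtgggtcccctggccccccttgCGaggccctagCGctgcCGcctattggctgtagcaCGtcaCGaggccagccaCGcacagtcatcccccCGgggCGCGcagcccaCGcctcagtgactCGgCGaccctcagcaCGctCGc
Mael, chr1:166238695-166238994, minus strand: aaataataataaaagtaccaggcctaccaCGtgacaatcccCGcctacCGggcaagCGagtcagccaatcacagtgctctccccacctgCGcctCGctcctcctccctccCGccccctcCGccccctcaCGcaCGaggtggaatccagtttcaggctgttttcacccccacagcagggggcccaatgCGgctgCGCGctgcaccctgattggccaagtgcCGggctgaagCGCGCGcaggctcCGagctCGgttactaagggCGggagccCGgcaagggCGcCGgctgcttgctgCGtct
Sycp3, chr10:88459337-88459636, plus strand: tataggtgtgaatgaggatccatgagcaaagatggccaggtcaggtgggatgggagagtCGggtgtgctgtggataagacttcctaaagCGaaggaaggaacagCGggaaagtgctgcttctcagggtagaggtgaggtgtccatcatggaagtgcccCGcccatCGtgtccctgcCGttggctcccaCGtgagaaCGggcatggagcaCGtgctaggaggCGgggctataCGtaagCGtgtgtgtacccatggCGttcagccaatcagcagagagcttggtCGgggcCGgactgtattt

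The windows differed in CG content. The Rhox5 window held 5 CG dinucleotides at a GC content of 43.7%, which 62.3% of the 32544 promoters equalled or passed, against a median of 7 over all promoters. The Dazl window held 28, the Mael window 24 and the Sycp3 window 15, numbers equalled or passed by 14.3%, 20.1% and 34.9% of promoters. The Taf7l window held 17, and the overlapping windows of Stk31 held 29 and 28. The E-box, letters CACGTG, which reads the same on both strands, stood in 7.17% of all windows and in those of Sycp3, Mael, Taf7l and Stk31 but not in those of Rhox5 and Dazl. Sycp3 had it 64 and 43 bases before the start, Mael 223 and Taf7l 49. The Stk31 windows had it 55 bases before the start site in the first and 120 in the second. The E2F-type letters TCCCGC, searched on both strands and not overlapping the E-box, stood in 20.1% of all windows, and once in that of Sycp3 and at 2 places in that of Mael. Motif matches are descriptions of these letters only.

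Rhox5 (probe set 1423429_at, chromosome X, 37754608 to 37808878 in GRCm38.p6) was low in A3 alone. Its signal was 5.68 on the induced and 5.70 on the control array of A3, against 9.74 and 9.53 on the induced and control arrays of A1 and 9.90 and 9.98 on those of A4. All A3 values lay below all others by a gap of 3.83 log2. The A3 mean of 5.69 against the A1 and A4 mean of 9.79 is a difference of -4.10, or 17.1-fold lower. Rhox5 was chosen on this difference, so it is given as a description with no test. In bulk samples such as these, fewer cells expressing a gene and less RNA in every cell cannot be told apart.

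**Figure D1:**
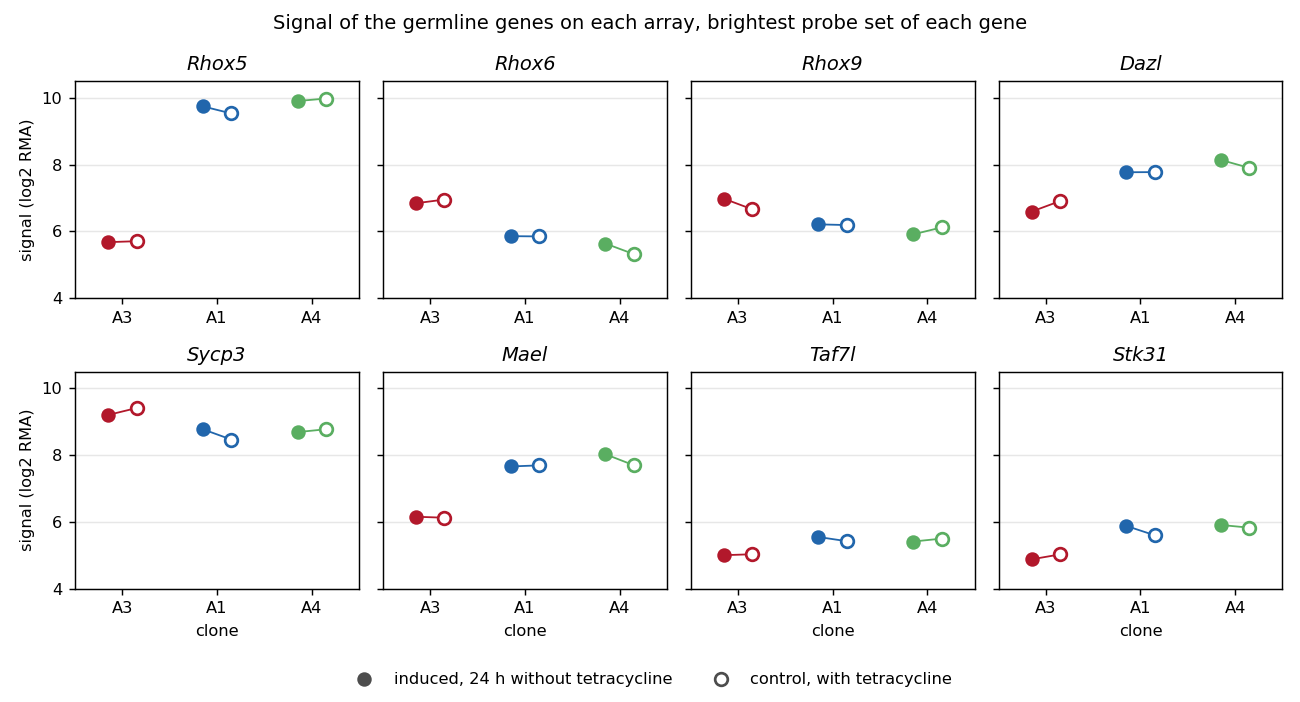
Signal (log2 RMA, vertical axis) of the brightest probe set of each of the 8 genes on each array, by clone (horizontal axis), filled points for induced and open points for control cells, joined within a clone. Rhox5, Dazl, Mael, Taf7l and Stk31 are lowest in A3, and Rhox6, Rhox9 and Sycp3 highest.

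The low signal of Rhox5 in A3 was not shared in direction by all of the 7 remaining genes. In A3 against A1 and A4, 4 of them were lower (Dazl, Mael, Stk31 and Taf7l) and 3 were higher (Rhox6, Rhox9 and Sycp3) at an adjusted p under 0.05. Over all 45037 probe sets tested, 5.68% were lower and 3.89% higher in A3 by the same rule, and over 1 probe set for each of 18193 genes 6.32% were lower and 5.13% higher. Of the 9 probe sets of these 7 genes, 6 had both A3 arrays below all other arrays and 3 had both above. By the brightest probe set of each gene, 4 lay below and 3 above. Over all probe sets, 16.6% had A3 below and 19.8% had A3 above. The median A3 difference was -0.45 over the brightest probe set of each of the 7 genes and 0.03 over all probe sets. Over the 9 probe sets it was -0.74, where Dazl and Stk31, both lower, enter with more than 1 probe set each. Since the genes were listed with results of these clones known, these counts describe them and are no separate evidence.

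Among the genes lower in A3, Mael (1436837_at, chromosome 1, 166201385 to 166238744) had the largest difference. Its signal was 6.15 on the induced and 6.13 on the control array of A3, against 7.66 and 7.69 in A1 and 8.03 and 7.70 in A4 (induced array given before control, here and below). The groups were separated by a gap of 1.51, and Mael was lower by 1.63 ± 0.11 on the log2 scale (SE), or 3.09-fold, with an adjusted p of 0.000372. Mael stayed past the threshold in A3 against A1 alone (adjusted p 0.0013) and against A4 alone (adjusted p 0.00084).

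Dazl (chromosome 17, 50279393 to 50293620) was lower in A3 by both of its probe sets. The brighter, 1419542_at, read 6.59 and 6.91 in A3, against 7.77 and 7.77 in A1 and 8.14 and 7.90 in A4. The other, 1449502_at, read 6.79 and 6.74 in A3, against 7.43 and 7.28 in A1 and 7.84 and 7.47 in A4. The A3 arrays lay below the others in both cases. The differences were -1.15 ± 0.13 (SE, adjusted p 0.0024) and -0.74 ± 0.11 (adjusted p 0.0062). The difference of the brighter probe set was -1.36 over the induced and -0.93 over the control arrays.

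Stk31 (chromosome 6, 49395506 to 49469506) was lower in A3 by both of its probe sets too. The brighter, 1425317_x_at, whose suffix marks probes that may bind other transcripts, read 4.88 and 5.03 in A3, against 5.88 and 5.60 in A1 and 5.91 and 5.83 in A4. The other, 1454138_a_at, read 4.67 and 4.90 in A3, against 6.08 and 5.49 in A1 and 6.03 and 5.89 in A4. All A3 values were the lowest, and all lay under the lowest array median of 5.11. The differences were -0.85 ± 0.12 (SE, adjusted p 0.0048) and -1.09 ± 0.16 (adjusted p 0.0061). Without the induced A3 array, the brighter probe set was at -0.69 with an adjusted p of 0.058.

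Taf7l (1420433_at, chromosome X, 134460116 to 134476505) had the smallest difference among the lower genes. Its signal was 5.00 and 5.03 in A3, against 5.55 and 5.42 in A1 and 5.41 and 5.50 in A4, close to the array medians. A3 lay lowest by a gap of 0.38, and the difference was -0.45 ± 0.10 (SE, adjusted p 0.031). This call was lost when any 1 of the 6 arrays was left out, with adjusted p between 0.059 and 0.21, and also in A3 against A1 alone (0.058) and against A4 alone (0.073). The direction was the same each time.

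The Rhox genes next to Rhox5 went the other way. Rhox6 (1419018_at, chromosome X, 37827055 to 37829857) read 6.84 and 6.95 in A3, against 5.85 and 5.85 in A1 and 5.63 and 5.32 in A4, with all A3 values above all others by a gap of 0.99. It was higher in A3 by 1.23 ± 0.12 (SE), or 2.35-fold, with an adjusted p of 0.0013. Rhox9 (1449540_at, chromosome X, 37899097 to 37901770) read 6.98 and 6.66 in A3, against 6.21 and 6.19 in A1 and 5.91 and 6.12 in A4. It was higher by 0.71 ± 0.13 (SE, adjusted p 0.013), with the A3 arrays above the others by 0.45. Without the control A1, the induced A1 or the induced A3 array, the adjusted p of Rhox9 was 0.051, 0.063 and 0.14. Rhox6 and Rhox9 are close paralogues, probe sequences were not analysed here, and signal shared between their probe sets cannot be told apart from separate changes.

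Sycp3 (1449534_at, chromosome 10, 88459587 to 88473236) was higher in A3 as well. It read 9.20 and 9.41 in A3, against 8.77 and 8.47 in A1 and 8.69 and 8.77 in A4. The A3 arrays were the highest, by a gap of 0.43, and the difference was 0.63 ± 0.13 (SE), or 1.55-fold, with an adjusted p of 0.021. The adjusted p was 0.057 without the control A1, 0.15 without the control A3, 0.055 without the induced A3 and 0.054 without the induced A4 array, and 0.063 in A3 against A4 alone.

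**Figure D2:**
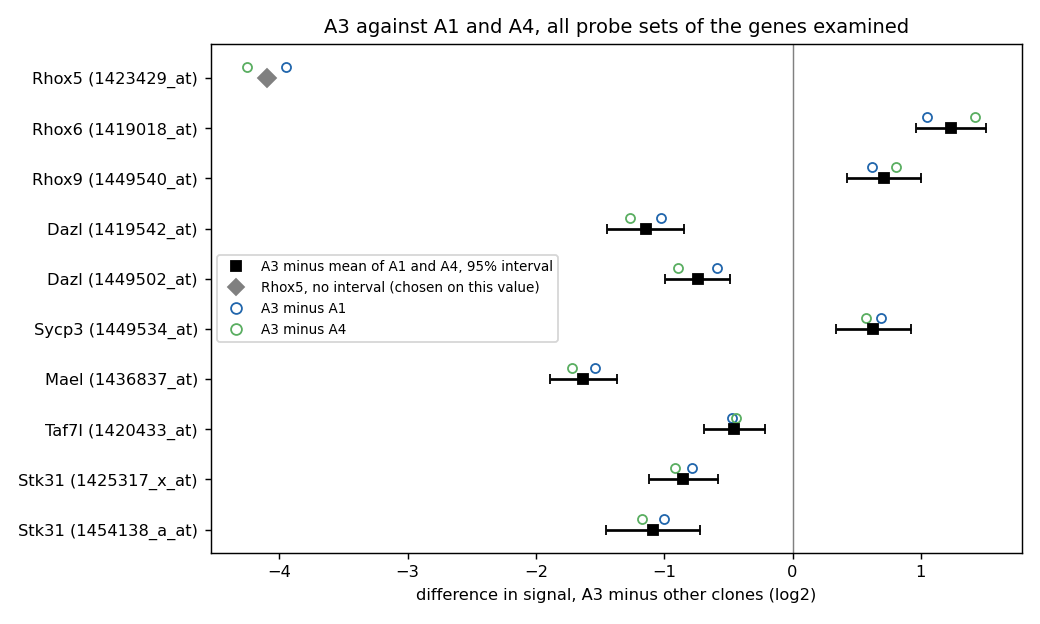
Difference in signal (log2, horizontal axis) of A3 against the mean of A1 and A4 for each of the 10 probe sets, as squares with 95% intervals from limma, and against A1 and A4 singly as open circles. Rhox5 at -4.10 is drawn with no interval because it was chosen on this value, and the intervals of the others lie on one side of 0.

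The induced A1 and control A4 arrays, which share the raised group of probe sets, were also left out together. Without them all 7 genes kept their direction, in a fit with no condition term. Mael was at -1.72, Dazl at -1.21, Stk31 at -0.80 and Taf7l at -0.40, and Rhox6 at 1.16, Rhox9 at 0.77 and Sycp3 at 0.73. This alternative was chosen after seeing the data and leaves 1 array each for A1 (control) and A4 (induced). The only spread in this fit is that between the 2 A3 arrays, so no adjusted p is given.

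Over the 6 arrays, the signals of the brightest probe sets fell into a pair of opposite patterns. With Rhox5, Pearson's r was 0.99 for Mael, 0.98 for Taf7l, 0.98 for Stk31 and 0.97 for Dazl, and -0.97 for Rhox6, -0.94 for Rhox9 and -0.91 for Sycp3. The arrays share 3 clones, of which A3 sets most of the range, so these are descriptions with n = 6 arrays. Among the 1527 probe sets with a range of at least 1 log2, those most like Rhox5 belonged to Gm20767 (r 0.998), Slc39a14, a zinc transporter (0.998), Rapgef3, an exchange factor for Rap GTPases (0.997), Cyct, the testis form of cytochrome c (0.997) and Krt8, a keratin of simple epithelia (0.997). Gm20767 read 3.84 and 3.84 in A3, against 7.66 and 7.67 in A1 and 8.17 and 7.97 in A4, a mean difference of -4.02. Cyct read 6.06 and 5.91 in A3, against 7.55 and 7.47 in A1 and 7.69 and 7.75 in A4.

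Rhox5 was the only one of the measured genes in its region with a low signal in A3 of that size. RefSeq lists 42 Rhox genes, and 4 of them were measured. The fourth, Rhox13 (1443844_at), read 6.62 and 6.37 in A3, against 6.25 and 6.10 in A1 and 6.11 and 6.13 in A4. Its A3 arrays lay above the others, at a difference of 0.35 ± 0.10 (SE, adjusted p 0.085). Of the 20 nearest measured genes outside the cluster, 10 on each side, 1 was higher in A3, Ube2a, a ubiquitin-conjugating enzyme (0.51), and 1 was lower, Thoc2, a subunit of an mRNA export complex (-0.45). The differences of the 20 ranged between -0.45 and 0.51 with a median of 0.08. Zbtb33, a reader of methylated DNA known as Kaiso that lies among the Rhox genes, differed by 0.01, and Tmem255a by 0.17. Of 617 X-linked genes on the array, 5.67% were lower and 7.94% higher in A3, against 6.37% and 5.05% of 17404 autosomal genes.

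**Figure D3:**
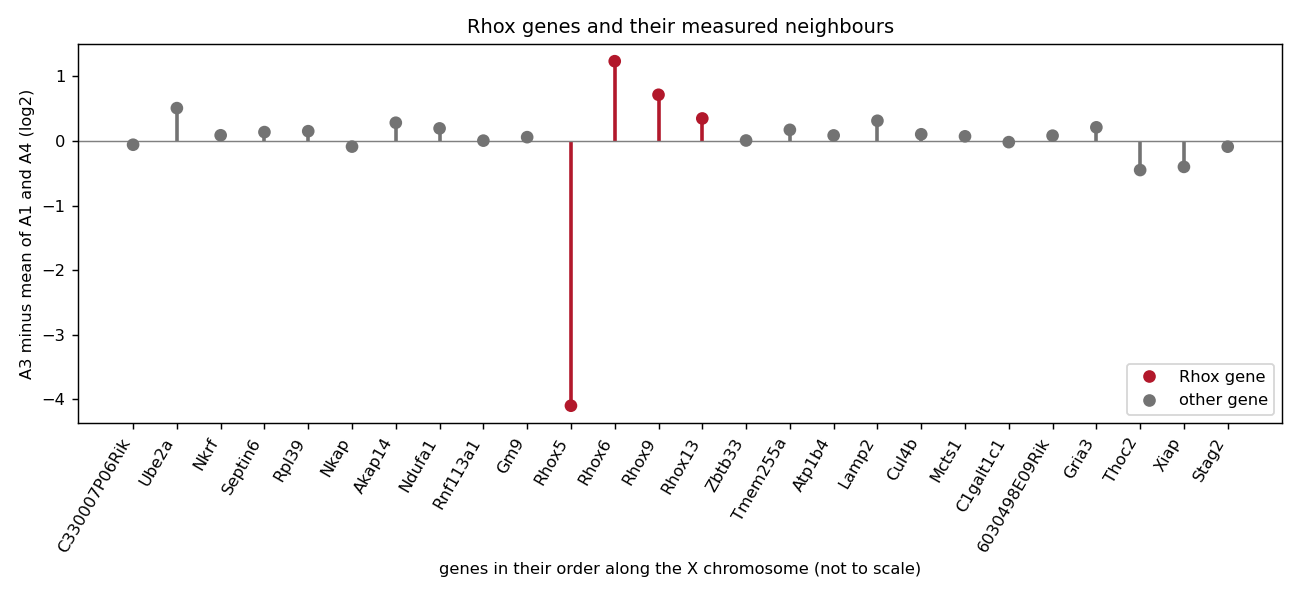
Difference in signal of A3 against the mean of A1 and A4 (log2, vertical axis) for the 4 measured Rhox genes and their measured neighbours, in gene order along the X chromosome and not to scale. Rhox5 lies at -4.10 while Rhox6, Rhox9 and Rhox13 lie above 0.

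No germline gene passed the test on induction. Across all 45037 probe sets, 0 passed the threshold by limma (0%), and 0 also with the clone as a block, while 676 and 1539 had an unadjusted p under 0.05. The methods' t-test gave 0 after Benjamini-Hochberg adjustment and 1096 at an unadjusted p under 0.05. None of the 10 probe sets had an unadjusted p under 0.05. The induced minus control difference of Mael was 0.03 in A3, -0.03 in A1 and 0.33 in A4, and that of Rhox5 was -0.03, 0.21 and -0.07 in the same clones. That of the brighter Dazl probe set was -0.31 in A3, -0.00 in A1 and 0.24 in A4. The second Dazl probe set was at 0.05 in A3, 0.16 in A1 and 0.38 in A4, above 0 in all 3 clones. For Rhox5 the mean change was 0.04 with a 95% half-width of 0.23 when the clone was a block. Whether the change on induction differed between A3 and the other clones was tested as a term of the fit, and 0% of probe sets passed. The largest such difference among the genes was -0.59 for the second Stk31 probe set (adjusted p 0.73), whose difference on induction was -0.23 in A3, 0.58 in A1 and 0.14 in A4.

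**Figure D4:**
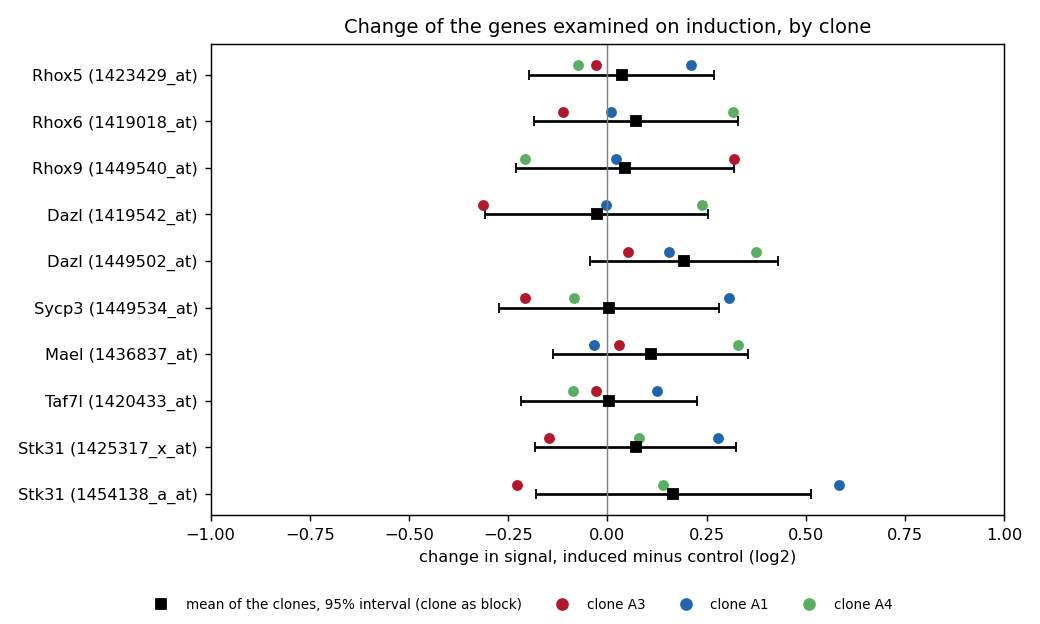
Change in signal on induction (induced minus control, log2, horizontal axis) of each probe set in A3, A1 and A4, with the mean of the clones and its 95% interval with the clone as a block. The intervals of all 10 probe sets include 0.

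Between the clones A1 and A4, 0 of the 10 probe sets differed at an adjusted p under 0.05, against 0.0178% of all probe sets. Rhox5 was lower in A1 by 0.30 ± 0.12 (SE), Rhox6 was higher by 0.37 ± 0.14 and the second Dazl probe set was lower by 0.30 ± 0.13, each with an unadjusted p under 0.05 and an adjusted p of 1. The remaining 7 probe sets lay between -0.25 for Dazl and 0.19 for Rhox9. In size, each was smaller than the A3 difference of the same probe set.

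Of 52 other germline genes listed for comparison, 47 were measured, and 11 were lower and 2 higher in A3, where 6.32% of all 18193 genes were lower and 5.13% higher. Their median difference was -0.09, against 0.04 over all genes. Slc25a31, the germ cell ADP/ATP carrier, averaged 4.12 in A3 and 5.46 in A1 and A4 (-1.33, adjusted p 0.00056). Piwil2, a PIWI protein that binds piRNAs, averaged 6.76 in A3 and 7.98 in A1 and A4 (-1.22, adjusted p 0.00085), and Mov10l1, a helicase of piRNA production, averaged 5.45 and 6.55 (-1.11, adjusted p 0.0011). The other 8 lower genes were Tex19.1, Tdrkh, Hormad2, Tex11, Syce1, Dmc1, Smc1b and Tex12. The higher genes were Tdrd12, a Tudor domain protein of the piRNA pathway, at 9.90 in A3 and 8.21 in A1 and A4 (1.69, adjusted p 0.00018), and Syce2, a protein of the synaptonemal complex, at 11.06 and 10.59 (0.47, adjusted p 0.022). The remaining 34 did not pass. Of the 47, 19 lay under 5 log2 on all arrays, and the lower gene Tex12 (-0.43, adjusted p 0.043) was among them.

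Of 14 measured enzymes and readers of DNA methylation, 3 were lower and 1 higher in A3, with a median difference of 0.01, beside the same 6.32% and 5.13% over all genes. Tet1, which oxidises 5-methylcytosine, averaged 10.41 in A3 and 11.32 in A1 and A4 (-0.90, adjusted p 0.0044). Tet2, a related enzyme, was lower by 0.53 and Uhrf1, which directs methylation to newly copied DNA, by 0.51 (adjusted p 0.015 and 0.020), and Mbd1, a reader of methylated CG, was higher by 0.45 (adjusted p 0.025). Of 20 measured genes for repressors of germline genes, 5 were lower and 0 higher (over all genes 6.32% and 5.13%), among them Yaf2 (-0.75), Mga (-0.64) and Tfdp1 (-0.49).

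Markers of cell states are given beside the 6.32% of all genes that were lower and the 5.13% that were higher in A3. Of 8 measured primordial germ cell markers, 1 was lower, Stra8, which starts meiosis on retinoic acid (-1.62), and 3 were higher, Prdm1 (1.14), Tfap2c (1.10) and Dppa3 (1.05). Of 12 primitive endoderm markers, 6 were lower, including Col4a1 (-1.49) and Dab2 (-1.12), and 1 was higher, Lamb1 (0.53). The remaining lower genes were dim in A3, where Sox7 averaged 4.92, Gata6 4.87, Gata4 4.68 and Pdgfra 4.41. The A3 arrays overlapped the others for Pdgfra. The summed linear signal of the list was 1455 and 1520 in A3, against 1873 and 1725 in A1 and 1431 and 1418 in A4. Lamb1 had the highest signal in this sum (9.72 log2 in A3). The counts were near these shares for 3 lists. Of 12 ES cell markers 1 was lower, Klf4 (-0.51). Of 10 trophoblast markers 1 was lower, Krt8 (-1.05), and of 9 fibroblast markers 1 was higher, Loxl1 (0.65), with Plac1, Elf5 and Gata3 of the first list and Postn, Col1a1, Lum and Col3a1 of the second under 5 log2 on all arrays. The part of these markers in the differences of the germline genes was not tested.

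**Figure D5:**
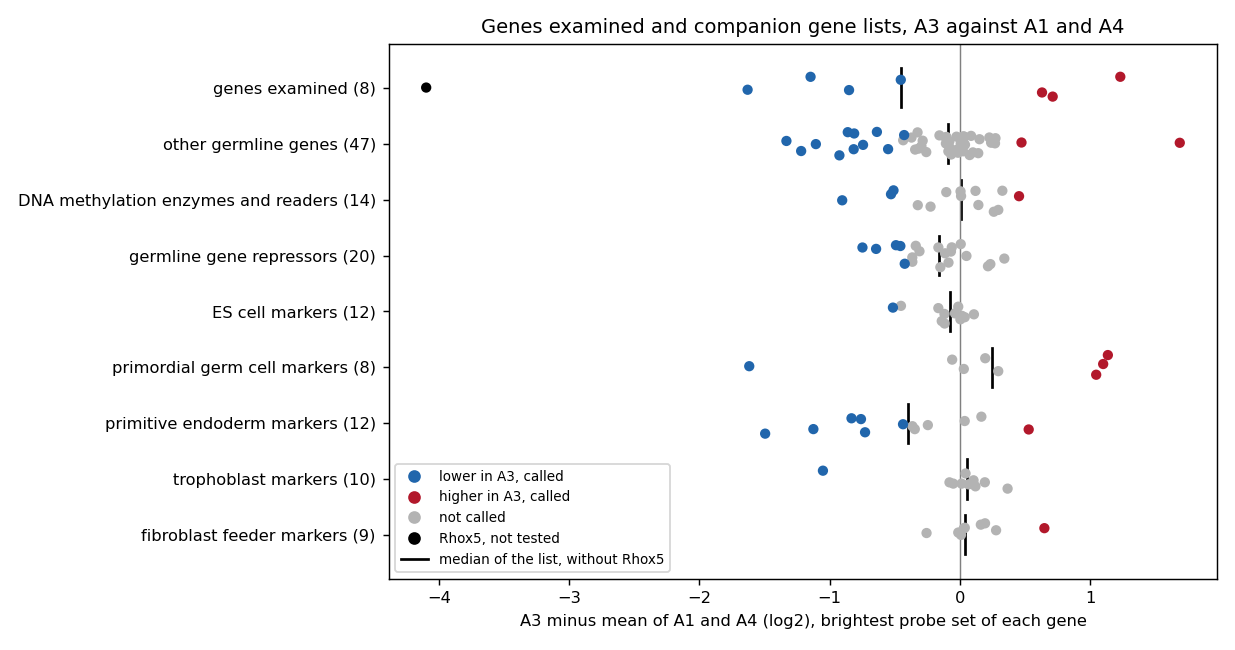
Difference in signal of A3 against the mean of A1 and A4 (log2, horizontal axis) for the genes examined and for each companion list, 1 point for the brightest probe set of each gene, blue where lower and red where higher at an adjusted p under 0.05. Rhox5 is the black point at -4.10, and the short vertical lines are medians without it.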

How the data were processed

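The authors deposited log2 signals made with RMA (affy, per the labels' processing notes, version not given in the sources used here) from Affymetrix mouse genome arrays. The values were used as deposited. Of 45101 probe sets, 64 Affymetrix controls were left out and 45037 tested, of which 34945 had 1 symbol in the platform annotation, 932 several and 9160 none. RefSeq GRCm38.p6 gave positions and promoters. Differences were tested with limma 3.58.1 in R 4.3.3 (lmFit, eBayes, two-sided, Benjamini-Hochberg over all probe sets), with clone and condition as terms for clones and condition alone for induction, and the scripts were tested on simulated data. Genes with several probe sets are led by the brightest. All probe sets of the genes examined are given. From each list the up to 3 highest and 3 lowest genes past the threshold were named, with 5 genes most like Rhox5 and 10 neighbours on each side. Remaining names were chosen after their values were seen. The genes examined and the lists were chosen with earlier results of these data known. Induced and control arrays of a number come from the same clone and are paired by it. The deviations of same-clone arrays correlated at 0.31 in A1, 0.67 in A3 and 0.29 in A4, and those of A1 with A4 arrays at 0.35 and 0.37, so the pairing rests on the shared clone and not on these values. Alternatives covered normalization, filters, weights, the block and each left-out array. The number of arrays limits the precision.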

Additional observations from a re-analysis of the deposited data

How the results depend on the processing

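In A3 against A1 and A4, 4309 probe sets passed the threshold. Leaving out 1 array gave between 1312 (without the induced A3 array) and 3098, A3 against A4 alone gave 2837, and the arrays without both the induced A1 and the control A4 gave 940. Of the 7 germline genes other than Rhox5, 7 passed with all arrays and between 4 and 6 with 1 array of A1 or A4 left out. Fewer passed without the induced A3 array. The fit without both the induced A1 and the control A4 array was chosen after seeing the data and is given by its differences only. No A3 difference of the 8 genes changed sign under any alternative run. Between A1 and A4, 8 probe sets passed, 3 with 1 probe set per symbol and between 1 and 8 with 1 array left out. For A3 by induction 0 passed, and 2 with 1 probe set per symbol. On induction, 0 passed in the main fit and 0 with the replicate block, an alternative that was run for induction only.

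The small changes on induction had no stable sign. Sycp3 was at -0.013 after repeated quantile normalization and -0.018 after cyclic loess, against 0.0051 as reported. With array weights Rhox6 was at -0.017, Rhox9 at -0.13 and Dazl at 0.19, while Rhox5 moved to 0.32 from 0.036. That fit had no clone term, so unequal weights let differences between clones into these values. With 1 array left out, the groups no longer hold the same clones, so the change takes in differences between clones. It ranged between -1.31 and 1.42 for Rhox5, -0.29 and 0.53 for Rhox6, -0.26 and 0.27 for Rhox9, -0.35 and 0.43 for Dazl, -0.20 and 0.27 for Sycp3, -0.41 and 0.67 for Mael, -0.14 and 0.16 for Taf7l and -0.16 and 0.41 for Stk31. With a whole clone left out, both groups hold the same clones and the ranges were narrower. They were -0.052 to 0.092 for Rhox5, -0.052 to 0.16 for Rhox6, -0.093 to 0.17 for Rhox9 and -0.16 to 0.12 for Dazl. For Sycp3 the range was -0.15 to 0.11, for Mael -0.0018 to 0.18, for Taf7l -0.058 to 0.048 and for Stk31 -0.033 to 0.18. With 2 arrays per clone, differences between clones cannot be generalised beyond these 3.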
